A study of Homo sapiens with 101 samples.

Results

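tert-Butylhydroquinone (tBHQ) is a phenolic antioxidant that cells oxidise to an electrophilic quinone. The human fibrosarcoma line HT1080 was given tBHQ at 200 µM, and its transcripts were set against those of the control labelled DMSO_pooled. The 2 groups were chosen by their sample titles and hold 6 samples each, so 12 of the 101 samples of the series were used for the central comparison. The series set several prototype compounds side by side, each at 1 dose at which total p53 protein was 1.5-fold up, and its title speaks of thresholds in genotoxicity dose response. Cells of both groups sat in complete medium with a final vehicle content of 0.1%, and all belong to the same unmodified line. The labels used here give no exposure time, and they do not say what was pooled in DMSO_pooled or whether replicates are separate cultures, so p-values cover no more than sample-to-sample spread, some of which may be technical.

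The values are log2 levels from the authors' Affymetrix arrays. A level of 4 was taken as the limit above background, and 11489 genes that reached it on average in at least 1 group of the series were tested. All 8 markers of mesenchymal cells fixed for the labelled line were well above that limit, with group means from 9.93 to 13.06. Of 38 markers of epithelial, blood, liver, endothelial, neural and muscle cells on the array, 35 had means under 4 in both groups. The exceptions were MUC1, SNAP25 and AFP. AFP, a fetal serum protein made in liver, had levels from 3.88 to 5.47 in tBHQ samples and from 2.89 to 3.58 in DMSO_pooled samples, and its part in the results was not tested. Summarised over the 38 markers, the mean level was 2.99 to 3.12 per tBHQ sample and 3.01 to 3.09 per DMSO_pooled sample. The first principal component, with 48.1% of the variance, separated tBHQ from DMSO_pooled, and the second, with 29.3%, set replicates 1 and 2 apart from the others within DMSO_pooled and replicates 1, 2 and 4 below the others within tBHQ.

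The best known sensor of such electrophiles is KEAP1, an adaptor that hands the transcription factor NRF2 (gene NFE2L2) to a ubiquitin ligase. When reactive cysteines of KEAP1 are modified, NRF2 escapes destruction, pairs with a small MAF protein and binds antioxidant response elements beside genes for glutathione synthesis, quinone reduction, NADPH supply and heme breakdown. The repressor BACH1 holds some of the same elements, that of HMOX1 among them, until heme or oxidants remove it.

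Treated cells differed from control cells at 1129 of 11489 genes (9.83%), with 619 genes higher after tBHQ (5.39% of those tested) and 510 lower (4.44%). The split was 573 higher and 567 lower with arrays set to an equal median, and 563 and 575 with quantile normalization. A gene was called when limma's adjusted p (Benjamini-Hochberg over all tested genes) was under 0.05 and the change at least 1.5-fold. As measured, with levels under 4 at face value, 22 genes rose and 11 fell at least 4-fold, and 177 rose and 149 fell at least 2-fold. The change ran the same way in all 6 same-numbered pairs for 611 of the higher and 501 of the lower genes. With the replicate number as a block, all of these calls were kept, and 648 genes were higher (5.64%) and 545 lower (4.74%). The 2 groups did not overlap for 471 of the higher calls and 344 of the lower calls, where 9.39% and 6.92% of all tested genes lay wholly above or wholly below the control. One group averaged under 4 for 50 of the higher and 80 of the lower calls.

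**Figure D1:**
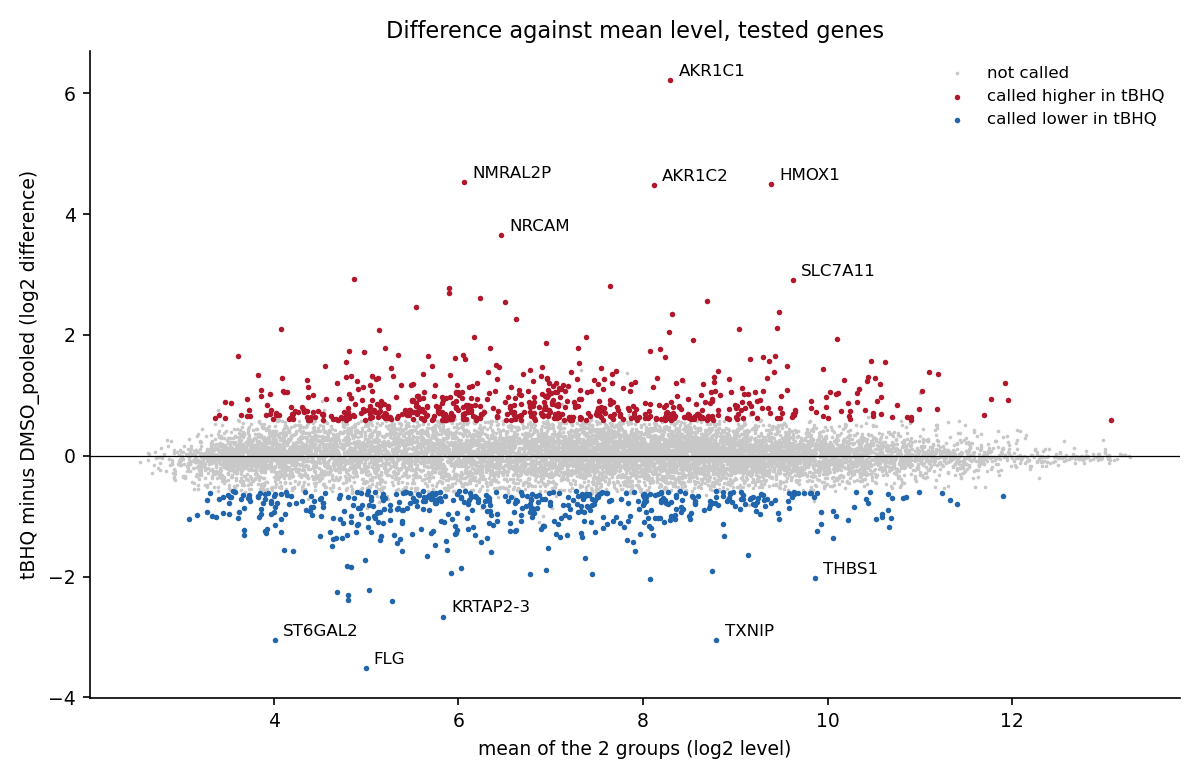
Each point is 1 of 11489 tested genes, with the mean log2 level of the 2 groups on the horizontal axis and the log2 difference tBHQ minus DMSO_pooled on the vertical axis, and coloured points are the 619 genes called higher and the 510 called lower. AKR1C1 stands alone at 6.22, and TXNIP, at -3.05, is lowest among genes with both group means above the limit of 4, while points such as FLG and ST6GAL2 rest on levels under it.

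Most of the tested genes of the NRF2 pathway rose. Of 63 listed members 55 were tested, and 35 were called higher, 20 were not called and 0 were called lower, against 5.39% called higher among all tested genes. Their median log2 difference was 0.77, against 0.01 over all tested genes. At an unadjusted p under 0.05 limma put 47 of the 55 higher, where 23.0% of all tested genes were higher and 19.2% lower at that threshold. The listed members GPX2, GSTA4, ABCC2 and ALDH3A1 were under the filter on low values, and the remaining ones were not analysed here.

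The start regions of the members were searched for the core of the antioxidant response element, TGACNNNGC, on both strands. RefSeq windows (GRCh38.p14) of 300 bases, from 250 bases before to 50 after the gene start, were at hand for 29 of the 35 higher members. The core was found in 7 of the 29 windows (24.1%), as did 6 of 15 windows of members that were not called (40%), 15.2% of the windows of all tested genes and 13.6% of all 27305 windows. A match is a description of letters and not a binding site, and known elements of several of these genes lie outside such a window. The stretches below come from 1 member each of glutathione synthesis, thioredoxin reduction and, with ME1 and PGD, NADPH supply. Each is read along its gene's strand, and capitals mark the core on either strand.
GCLM: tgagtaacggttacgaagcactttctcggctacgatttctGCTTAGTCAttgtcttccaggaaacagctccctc
TXNRD1: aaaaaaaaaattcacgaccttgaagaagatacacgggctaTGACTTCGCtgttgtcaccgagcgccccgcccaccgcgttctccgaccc
ME1: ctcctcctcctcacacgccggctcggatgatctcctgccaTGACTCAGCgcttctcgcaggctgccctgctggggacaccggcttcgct
PGD: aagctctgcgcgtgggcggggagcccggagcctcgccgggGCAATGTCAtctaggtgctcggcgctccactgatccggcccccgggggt
The GCLM stretch is chr1:93909431-93909504 on the minus strand, with the core 34 bases before the gene start. That of TXNRD1 is chr12:104215640-104215728 on the plus strand, with the core 99 bases before the start. ME1 has its core 137 bases before the start in chr6:83431140-83431228 on the minus strand, and PGD 201 bases before it in chr1:10398823-10398911 on the plus strand.

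Genes for cystine entry, glutathione synthesis, recycling and export all had members that rose. SLC7A11, the cystine importer that feeds glutathione synthesis, ran from 10.85 to 11.27 in tBHQ samples (median 11.08) and from 7.63 to 8.70 in DMSO_pooled samples (median 8.26). All treated samples lay above all controls, by 2.91 ± 0.18 on the log2 scale (SE, adjusted p = 1.81e-07). GCLC, the catalytic subunit of the rate-limiting ligase, ran from 9.59 to 10.26 (median 10.18) after tBHQ and from 7.78 to 8.11 (median 8.01) in the control, a difference of 2.10 ± 0.11 (adjusted p = 4.54e-08). GCLM, its modifier subunit, whose promoter stretch is shown above, ran from 11.06 to 11.52 (median 11.22) after tBHQ and from 9.34 to 10.02 (median 9.61) in the control, a difference of 1.57 ± 0.12 (adjusted p = 1.59e-06). Both subunits therefore rose without overlap between groups. GSR, which recycles oxidised glutathione, rose by 1.31, the membrane transferase MGST1 by 0.78 and the exporters ABCC3 and ABCC1 by 1.34 and 0.62 (ABCC1 by 0.58, under the threshold, without tBHQ replicate 6). The 6 tested members that were not called included glutathione synthetase (GSS, 0.22) and the lipid peroxidase GPX4 (0.03).

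Enzymes that reduce quinones, aldehydes and ketones gave the largest rise of the experiment, with 11 of 12 tested members called higher, EPHX1 at levels under 4 among them, and a median difference of 1.52. Over all tested genes 5.39% were called higher. AKR1C1, an aldo-keto reductase of steroids and lipid aldehydes, ran from 10.60 to 11.85 in tBHQ samples (median 11.43) and from 4.92 to 5.45 in DMSO_pooled samples (median 5.17). That is a difference of 6.22 ± 0.18 (adjusted p = 1.1e-10), or 74.3-fold. Each tested probe set of AKR1C1 was called higher, at 3.05 to 6.22, and the brightest, used here, gave the largest difference. Its neighbours in the family followed, with AKR1C2 4.48 ± 0.27 and AKR1C3 2.57 ± 0.22 higher. These paralogs are nearly identical in sequence, so probes of one may also bind transcripts of another, and the 3 values are not independent. AKR1B10, a related reductase, ran from 6.69 to 7.69 after tBHQ (median 7.32) and from 3.68 to 6.67 in the control (median 4.27), where replicate 2 lay far above the others. Its difference was 2.69 with that sample and 3.11 without it.

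NQO1, a reductase that turns quinones into hydroquinones, ran from 10.86 to 11.22 after tBHQ (median 11.12) and from 9.58 to 9.96 in the control (median 9.80). Its difference of 1.31 ± 0.08 (adjusted p = 1.78e-07) corresponds to 2.48-fold, from a control level that was already high. PIR, an iron-binding nuclear protein, rose by 2.35, the UDP-glucuronate maker UGDH by 1.57, the prostaglandin and alkenal reductase PTGR1 by 1.46 and the carbonyl reductase CBR1 by 0.77. EPHX1 averaged under 4 in both groups and OSGIN1 in the control, and for OSGIN1 the rise is at least 0.06 against the limit of 4 and was not called without tBHQ replicate 1 (0.58). CBR3 was the member not called, at -0.27 (adjusted p = 0.212).

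In the thioredoxin system 2 of 8 members rose, where 5.39% of all tested genes were called higher. Both are enzymes that regenerate some of the others. SRXN1, which repairs over-oxidised peroxiredoxins, ran from 9.97 to 10.26 after tBHQ (median 10.12) and from 8.43 to 8.56 in the control (median 8.48), a difference of 1.63 ± 0.06 (adjusted p = 1.22e-09). TXNRD1, the thioredoxin reductase shown above by its promoter, ran from 12.38 to 12.71 (median 12.51) after tBHQ and from 11.13 to 11.51 (median 11.32) in the control, a difference of 1.21 ± 0.08. Other members changed less than 1.5-fold: TXN differed by 0.27 and PRDX1 by 0.30 (adjusted p = 0.0046 and 0.0019), PRDX6 by 0.10 and PRDX3 by -0.16.

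The list for supply of NADPH, on which these reductases draw, had 4 of 5 tested members called higher. Over all tested genes the share was 5.39%. PGD of the pentose phosphate pathway ran from 9.93 to 10.47 after tBHQ (median 10.37) and from 8.75 to 8.92 in the control (median 8.82), a difference of 1.49 ± 0.09 (adjusted p = 1.21e-07). With its probe sets averaged it was 0.48 and not called. Malic enzyme ME1 rose by 1.29, IDH1 by 0.74 (0.39 and not called with probe sets averaged) and transaldolase TALDO1 by 0.64, while transketolase TKT differed by 0.35 (0.67 and called with probe sets averaged). Heme and iron genes rose as well, 7 of 9 of them, or 4 of 9 where all probe sets of a gene were averaged. HMOX1, the heme oxygenase, ran from 11.41 to 11.95 after tBHQ (median 11.62) and from 6.75 to 7.36 in the control (median 7.18), a difference of 4.49 ± 0.11 (adjusted p = 1.45e-11), or 22.5-fold. The biliverdin reductases BLVRB and BLVRA rose by 1.64 and 0.65 (BLVRA by 0.52 and not called with probe sets averaged), and the ferritin light chain FTL, an iron store, by 0.59. That of FTL was at the threshold and missed it, at 0.55 to 0.58, without any 1 of tBHQ replicates 3 to 6 or DMSO_pooled replicates 1, 2 and 4, as well as with arrays set to an equal median or quantile normalized. TFRC, the transferrin receptor that brings iron in, rose too, at 12.348 to 12.504 after tBHQ (median 12.41) against 11.034 to 12.003 in the control (median 11.37), a difference of 0.92 ± 0.16.

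Among the regulators, transcripts of proteins that restrain or assist NRF2 rose, whereas NFE2L2 itself did not pass the test. NFE2L2 ran from 10.29 to 10.68 after tBHQ (median 10.55) and from 10.26 to 10.55 in the control (median 10.32), a difference of 0.17 ± 0.08 (adjusted p = 0.107). KEAP1, its inhibitor, ran from 8.40 to 8.63 (median 8.48) after tBHQ and from 7.50 to 7.85 (median 7.62) in the control, a difference of 0.85 ± 0.07 (adjusted p = 4.31e-06). SQSTM1, the autophagy receptor that can take KEAP1 away, rose by 1.39, MAFG, a partner of NRF2 on DNA, by 1.07 and TRIM16, a ubiquitin ligase, by 2.12. BACH1 (0.21) and CUL3 (0.04), the scaffold of the KEAP1 ligase, were not called. The plot of 9 pathway genes by sample shows the separate groups for each gene but NFE2L2.

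**Figure D2:**
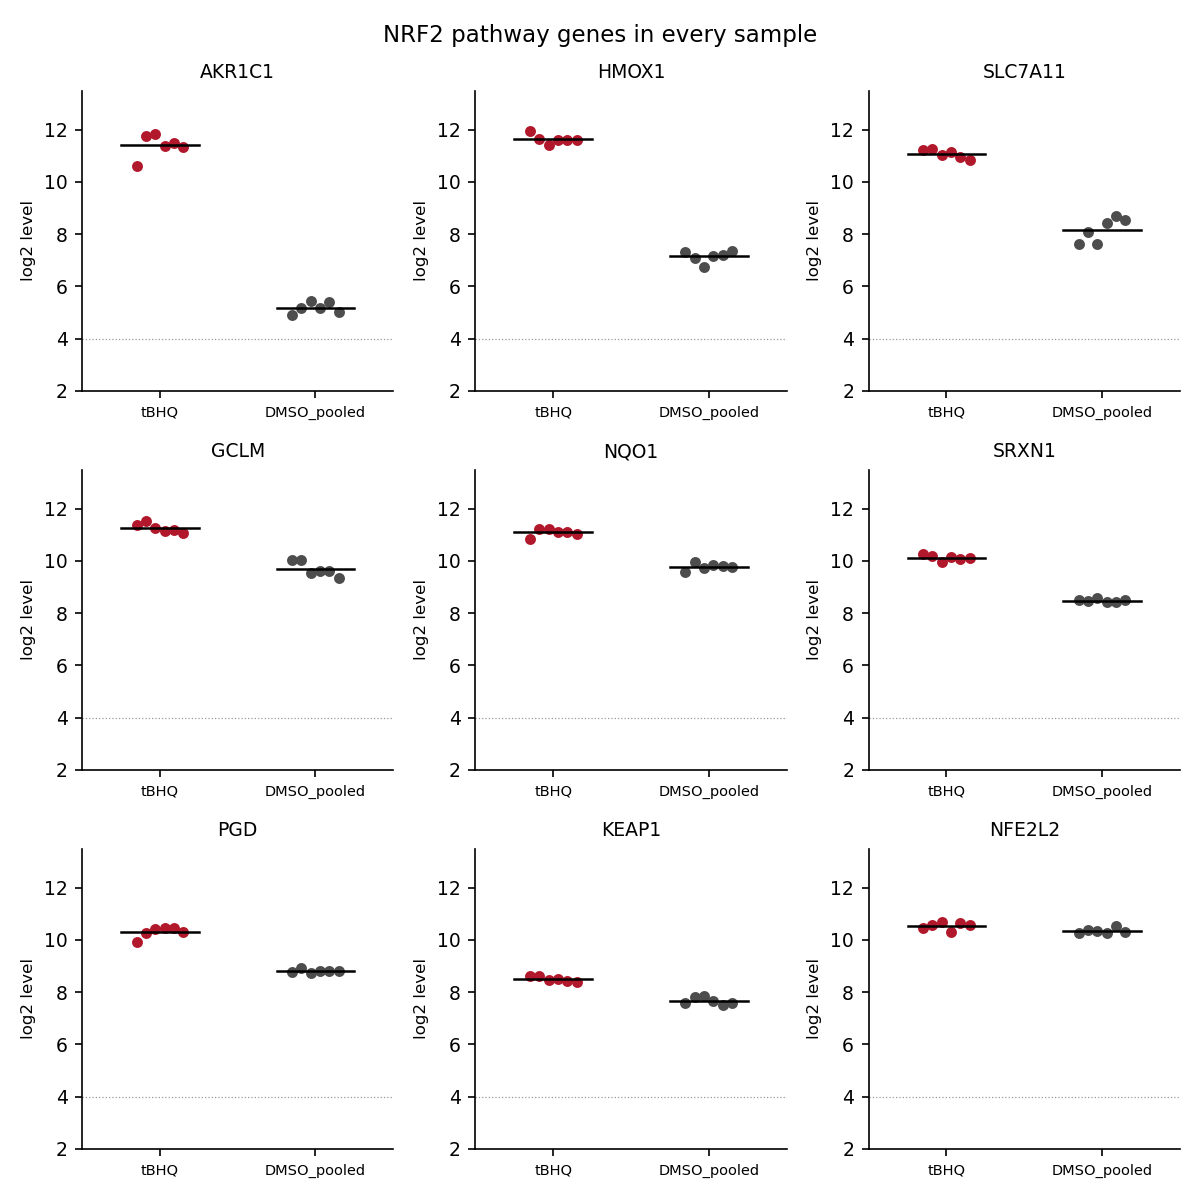
Log2 levels of 9 NRF2 pathway genes in the 6 tBHQ samples (red) and the 6 DMSO_pooled samples (grey), with black bars for group means and a dotted line at the limit of 4. Treated and control samples are apart for AKR1C1, HMOX1, SLC7A11, GCLM, NQO1, SRXN1, PGD and KEAP1, and overlap for NFE2L2.

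In other stress programs a minority of members was called, where 5.39% of all tested genes were called higher and 4.44% lower. At an unadjusted p under 0.05 limma put 12 of 24 heat shock genes higher and 0 lower. At that threshold 11 of 23 autophagy and lysosome genes were higher and 2 lower, and 2 of 8 metallothionein and zinc genes higher and 5 lower. Over all tested genes the shares were 23.0% and 19.2%. Of 24 heat shock genes 4 rose, HSPA1L by 1.18, HSPB8 by 0.68, HSPH1 by 0.65 and DNAJB4 by 0.63, and the median difference of the list was 0.22. HSPB8 was not called without tBHQ replicate 1 or 2 or DMSO_pooled replicate 5 (0.53 to 0.64), HSPH1 without DMSO_pooled replicate 6 (0.58) and DNAJB4 without DMSO_pooled replicate 4 (0.57), and 2 of the list were called where probe sets were averaged, with HSPA1L at 0.51 not among them. HSPA1A, the classic inducible HSP70, ran from 9.62 to 10.09 after tBHQ (median 9.82) and from 8.96 to 10.11 in the control (median 9.45), and was not called (0.32 ± 0.18, adjusted p = 0.20). Of 8 metallothionein and zinc genes none rose, and MT1E fell by 0.93. No proteasome gene of 30 was called by limma, with 13 higher and 1 lower at an unadjusted p under 0.05 (23.0% and 19.2% over all tested genes) and a median of 0.12. ZFAND2A, an arsenite-inducible proteasome-associated protein, was the 1 called gene of 10 in the ubiquitin list, at 1.06 ± 0.14. Of 23 autophagy and lysosome genes 5 rose, led by the protease CTSL, which ran from 10.71 to 11.24 after tBHQ (median 11.09) and from 9.02 to 9.32 in the control (median 9.12), a difference of 1.94 ± 0.09. MAP1LC3B, the autophagosome protein LC3, rose by 0.64, GABARAPL1, a relative of it, by 0.84, WIPI1 by 1.06 and the protease CTSD by 0.72.

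Of 24 genes of the ATF4 and CHOP response 6 rose and none fell, where 5.39% of all tested genes rose and 4.44% fell. At an unadjusted p under 0.05 limma put 12 higher and 1 lower, against 23.0% and 19.2% over all tested genes. DDIT3, which encodes CHOP, ran from 7.15 to 8.51 after tBHQ (median 7.95) and from 5.96 to 7.37 in the control (median 6.83), a difference of 1.09 ± 0.29 (adjusted p = 0.0115). The groups overlapped, yet DDIT3 was higher in all 6 pairs. TRIB3, a pseudokinase that CHOP induces, rose by 1.28, CEBPB by 1.08, the mitochondrial folate enzyme ALDH1L2 by 1.32, the phosphatase subunit PPP1R15A by 0.77 and the sensor kinase ERN1 by 0.65 (not called at 0.57 without tBHQ replicate 6 or at 0.50 without DMSO_pooled replicate 1, and at 0.16 with probe sets averaged). ATF4 itself differed by 0.55 (adjusted p = 4.96e-04), under 1.5-fold, and asparagine synthetase ASNS by 0.64 (adjusted p = 0.0973). SLC3A2, the partner chain of the SLC7A11 importer, rose by 1.36, and the amino acid carriers SLC7A5 and SLC1A5 by 0.72 and 0.60, but no tRNA synthetase was called. SLC1A5 missed the threshold, at 0.54 to 0.58, without any 1 of tBHQ replicates 1, 4, 5 and 6 or DMSO_pooled replicates 1 and 3, and under both other scalings. None of 20 chaperones of the endoplasmic reticulum was called by limma, where 3 were higher and 0 lower at an unadjusted p under 0.05, a share below the 23.0% of all tested genes that were higher. HSPA5, the main one, differed by 0.06. No gene of 7 in the AHR list was called either (3 higher and 0 lower at an unadjusted p under 0.05), and its classic target CYP1A1 averaged under 4 in both groups.

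Genes that p53 switches on did not rise as a group, with 1 of 36 higher and 1 lower and a median difference of -0.18. Over all tested genes 5.39% were called higher and 4.44% lower. CDKN1A, the cell cycle inhibitor p21, ran from 8.40 to 8.71 after tBHQ (median 8.60) and from 8.02 to 8.41 in the control (median 8.25). It was higher in all 6 pairs by a small margin, 0.33 ± 0.08 (adjusted p = 0.00867), which is 1.26-fold and under the threshold. MDM2, the ligase of p53 and its target, ran from 9.43 to 9.70 (median 9.56) after tBHQ and from 9.33 to 10.03 (median 9.69) in the control, a difference of -0.12 ± 0.10 (adjusted p = 0.404). GDF15, a secreted stress cytokine that other pathways induce too, was the riser. It ran from 11.68 to 12.57 after tBHQ (median 12.30) and from 10.59 to 11.61 in the control (median 11.40), a difference of 0.94 ± 0.19. PLK2 fell by 1.02 ± 0.08 (adjusted p = 1.59e-06). At an unadjusted p under 0.05, 14 of the 36 members were lower and 4 higher, against 19.2% lower and 23.0% higher over all tested genes, with PHLDA3 (-0.56), POLH (-0.55) and DDB2 (-0.47) among the lower. Without tBHQ replicate 1 or without DMSO_pooled replicate 6, 3 members were called lower in place of 1.

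Some of the genes of DNA replication and mitosis fell after tBHQ. Of 45 tested genes of G1/S and DNA replication 16 fell and 1 rose, where 4.44% of all genes fell, and 41 of the 45 had a negative difference (median -0.51). The subunits MCM2, MCM3, MCM4, MCM5 and MCM7 of the replicative helicase fell by 0.72 to 0.91, and MCM6 by 0.62. MCM2 ran from 7.97 to 8.66 after tBHQ (median 8.28) and from 8.93 to 9.48 in the control (median 9.13), a difference of -0.87 ± 0.12 (adjusted p = 1.54e-04). POLA1, the catalytic subunit of polymerase alpha, ran from 5.66 to 6.65 (median 5.86) after tBHQ and from 6.89 to 7.43 (median 7.12) in the control, a difference of -1.12 ± 0.16. Neither gene overlapped between groups. The repressor E2F8 fell by 1.38, the uracil glycosylase UNG by 1.06, and the nucleotide enzymes TK1, TYMS and RRM2 by 0.77, 0.70 and 0.69. MCM6 (-0.58 to -0.55) and RRM2 (-0.64 to -0.59) each lost the call without any 1 of 5 libraries, tBHQ replicates 3, 5 and 6 and DMSO_pooled replicates 1 and 2. CCNE1, which encodes cyclin E1 of the G1/S switch, was the riser at 0.81 ± 0.29 (adjusted p = 0.0471). Its call was lost without any 1 of 7 libraries (tBHQ replicates 1, 2 and 4 and DMSO_pooled replicates 3 to 6, at 0.62 to 0.79), and when arrays were set to an equal median or quantile normalized. Without tBHQ replicate 1, 25 members fell in place of 16.

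Of 45 mitotic genes 12 fell and none rose, where 4.44% of all tested genes fell. At an unadjusted p under 0.05 limma put 28 lower and 0 higher, where 19.2% of all tested genes were lower. CDK1, the kinase that drives mitotic entry, ran from 9.48 to 9.94 after tBHQ (median 9.53) and from 10.30 to 10.94 in the control (median 10.54), a difference of -0.99 ± 0.11 (adjusted p = 3.18e-05). Topoisomerase TOP2A fell by 0.89, the spindle protein NUSAP1 by 1.05, the kinesin KIF20A by 0.99, the ubiquitin-conjugating UBE2C by 0.92 and the proliferation marker MKI67 by 0.78. Cyclin B1 (CCNB1, -0.16), AURKA (0.00) and the factor FOXM1 (0.05), which drives many mitotic genes, were not called. In samples of whole cultures, fewer cells in S phase or mitosis and less RNA per cell cannot be told apart. Of 19 genes of homologous recombination and the Fanconi pathway 3 fell (RMI2 by 1.10, BARD1 by 0.81 and MRE11 by 0.61, or by 0.58 and not called without tBHQ replicate 3). These became 7 without tBHQ replicate 1, and 5 without DMSO_pooled replicate 4 or after quantile normalization. Of 12 histone genes 3 fell, with H2BC21 lowest at -1.11, and 5 without tBHQ replicate 1 or DMSO_pooled replicate 6. None of 20 genes of base and nucleotide excision repair was called by limma, where 3 were higher and 3 lower at an unadjusted p under 0.05, shares below the 23.0% and 19.2% over all tested genes.

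**Figure D3:**
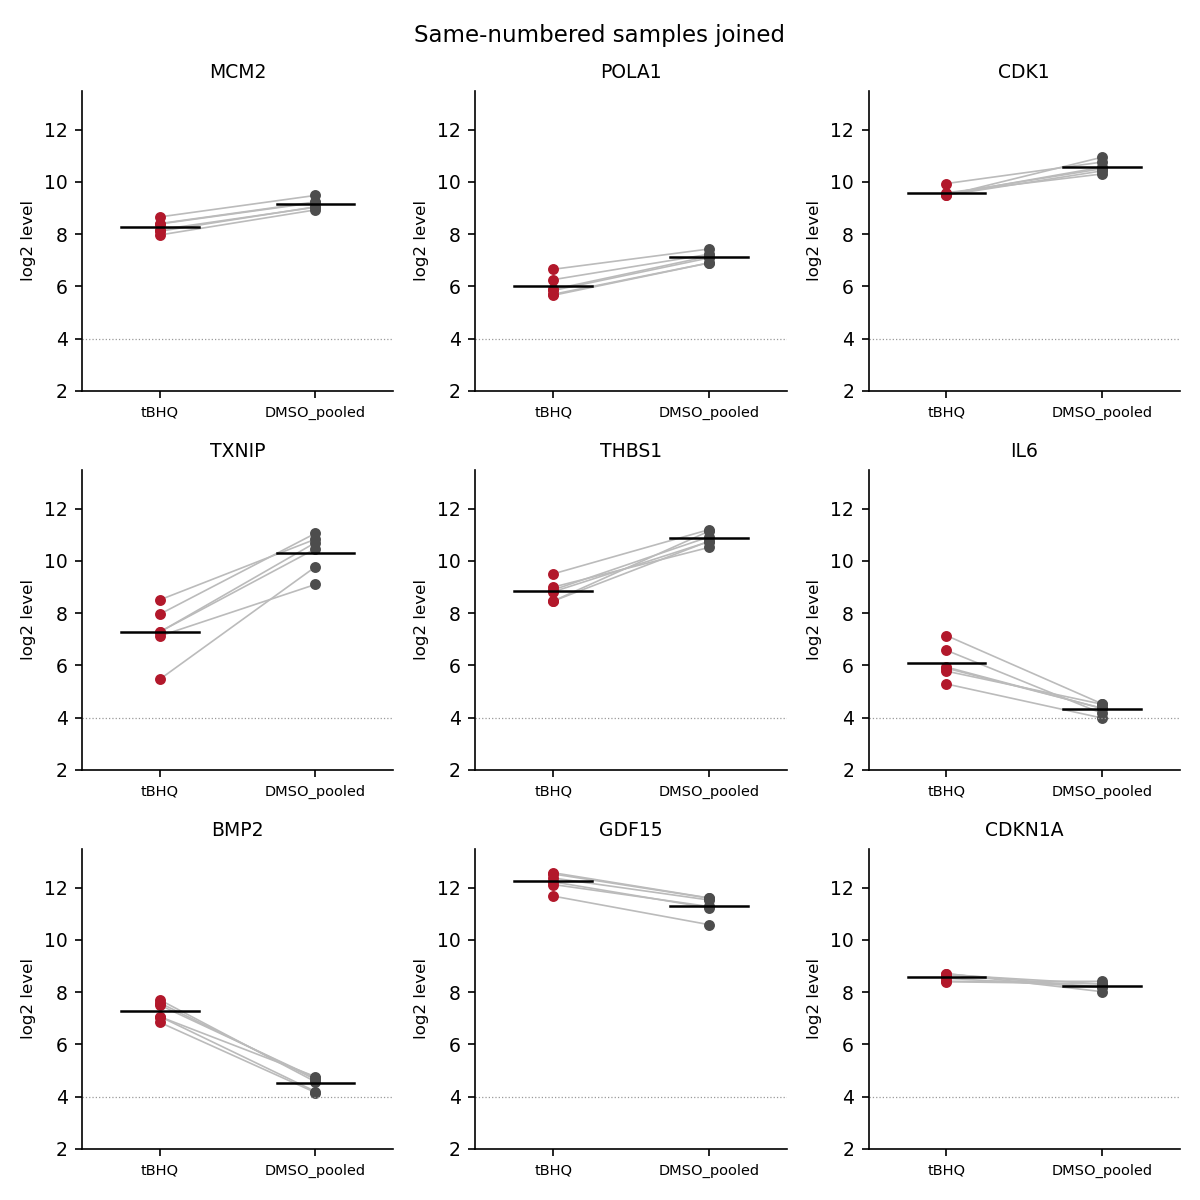
Log2 levels of 9 genes, with grey lines joining the tBHQ sample (left) and the DMSO_pooled sample (right) of the same replicate number, black bars for group means and a dotted line at the limit of 4. MCM2, POLA1, CDK1, TXNIP and THBS1 are lower after tBHQ in all 6 pairs, IL6, BMP2, GDF15 and CDKN1A higher in all 6.

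Of 18 genes for cytokines and NF-kB feedback 6 rose and IRF1 fell, where 5.39% of all tested genes rose and 4.44% fell. CXCL3, a neutrophil chemokine, ran from 6.33 to 7.52 after tBHQ (median 6.67) and from 3.94 to 4.73 in the control (median 4.27), a difference of 2.46 ± 0.20 (adjusted p = 2.2e-06). IL6 ran from 5.29 to 7.14 (median 5.91) after tBHQ and from 3.98 to 4.53 (median 4.35) in the control, a difference of 1.79 ± 0.25 (adjusted p = 1.52e-04). IL1A rose by 1.92, the prostaglandin synthase PTGS2 by 1.76, CXCL8 by 1.39 and LIF by 0.77 (not called, at 0.69 to 0.74, without any 1 of tBHQ replicates 3 to 6 or DMSO_pooled replicate 2). The feedback inhibitors of NF-kB were not called, at 0.01 for NFKBIA and 0.20 for TNFAIP3. IL1B spread widely, from 10.05 to 11.99 after tBHQ and from 7.94 to 11.57 in the control. Its difference of 1.03 was not called (adjusted p = 0.177), but was called with the replicate block (adjusted p = 0.00328). The same held for the immediate early factor EGR1, at 1.42 (adjusted p = 0.0672, and 0.00397 with the block).

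DUSP5, a nuclear phosphatase of ERK that ERK signalling induces, ran from 9.93 to 11.18 after tBHQ (median 10.68) and from 7.86 to 8.65 in the control (median 8.30), a difference of 2.38 ± 0.20 (adjusted p = 2.72e-06). SPRY4, another ERK brake, rose by 0.81 and the factor ETV1 fell by 0.89 (0.51 and -0.51 with probe sets averaged, neither called), which made 2 higher and 1 lower of 14 in the list, and 4 higher without tBHQ replicate 1 or DMSO_pooled replicate 5. Of 17 immediate early factors ZFP36, which destabilises cytokine mRNAs, rose by 0.96 and KLF2 fell by 1.09 (-0.55 and not called with probe sets averaged), and 3 were higher without DMSO_pooled replicate 5 or 6. Over all tested genes 5.39% were called higher and 4.44% lower, and the immediate early counts of 1 higher and 1 lower lay near these shares. Among interferon-stimulated genes 6 of 17 were called lower and 0 higher. At an unadjusted p under 0.05, 1 was higher and 7 were lower, against 23.0% and 19.2% over all tested genes. The 6 called lower include IFIT2, which averaged under 4 in both groups. The list's median of -0.21 became -0.01 with group means under 4 set to 4. OAS1, a sensor of double-stranded RNA, ran from 4.86 to 5.39 after tBHQ (median 5.07) and from 6.36 to 7.07 in the control (median 6.58), a difference of -1.56 ± 0.12 (adjusted p = 1.71e-06). IFIH1, which encodes the RNA sensor MDA5, fell by 1.17 (-0.51 and not called with probe sets averaged), IFIT3 by 0.83 and DDX60 by 0.65 (not called, at -0.58 to -0.54, without tBHQ replicate 1 or 2 or DMSO_pooled replicate 5). IRF1, an activator of such genes, fell by 0.83, while ISG15 (0.08) and MX1 (-0.01) were not called.

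Of 23 extracellular matrix genes 7 fell and none rose, and 4 fell without DMSO_pooled replicate 3 or where probe sets were averaged. Over all tested genes 4.44% fell and 5.39% rose. THBS1, the matrix glycoprotein thrombospondin 1, ran from 8.46 to 9.50 after tBHQ (median 8.85) and from 10.51 to 11.19 in the control (median 10.83), a difference of -2.02 ± 0.17 (adjusted p = 3.23e-06). COL1A1, a chain of collagen I, ran from 4.71 to 7.22 (median 5.68) after tBHQ and from 6.43 to 8.45 (median 7.89) in the control, a difference of -1.96 ± 0.42, with a wide spread, and of -0.57 and not called with probe sets averaged. The urokinase and tissue plasminogen activators PLAU and PLAT fell by 1.01 and 1.05 and the protease inhibitor TIMP3 by 0.66 (0.55 and not called without tBHQ replicate 4, 0.58 without DMSO_pooled replicate 2, and 0.30 with probe sets averaged), while the stromelysin MMP3 rose by at least 0.98 over the limit of 4. Of 18 genes of TGF-beta and BMP signalling 4 rose, 4 fell and 10 were not called. Among the risers, BMP2 ran from 6.84 to 7.70 after tBHQ (median 7.28) and from 4.15 to 4.76 in the control (median 4.61). Its difference was 2.78 ± 0.16 (adjusted p = 1.15e-07), and BMP6 was 1.29, the decoy receptor BAMBI 1.35 and ID2 0.67 higher. With probe sets averaged BMP6 was at 0.38 and not called. The fallers were TGFBI (-1.25), the YAP and TGF-beta responsive CCN1 (-1.18) and CCN2 (-0.74), and TGFB2 (-0.78). TGFB2 lost its call, at -0.82 to -0.61, without any 1 of tBHQ replicates 1, 2, 4 and 5 or DMSO_pooled replicates 3 to 6, and ID2 (0.58) without tBHQ replicate 3 or DMSO_pooled replicate 4.

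TXNIP, an arrestin that binds thioredoxin, holds back glucose uptake and is induced by glucose, had the largest fall among genes with both group means above the limit of 4. It ran from 5.47 to 8.51 after tBHQ (median 7.28) and from 9.10 to 11.06 in the control (median 10.58), a difference of -3.05 ± 0.45 (adjusted p = 2.53e-04), or 8.28-fold lower. Its relative ARRDC4 fell by 1.36, whereas ARRDC2 rose by 0.82 and the sensor subunits MLX (0.22) and MLXIP (0.02) were not called. SLC2A1, the glucose transporter GLUT1, ran from 7.72 to 8.04 after tBHQ (median 7.87) and from 8.68 to 9.01 in the control (median 8.84), a difference of -0.98 ± 0.08. With ANKRD37 it was 1 of 2 called lower of 24 hypoxia and glycolysis genes, where 4.44% of all tested genes were lower. Limma called none of 26 respiratory chain genes (0 higher and 10 lower at an unadjusted p under 0.05, against 23.0% and 19.2% over all tested genes), 16 cholesterol genes (2 and 3), 21 ribosome biogenesis genes (2 and 2) or 9 housekeeping genes (0 and 1). The bar chart of lists sets these counts side by side.

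**Figure D4:**
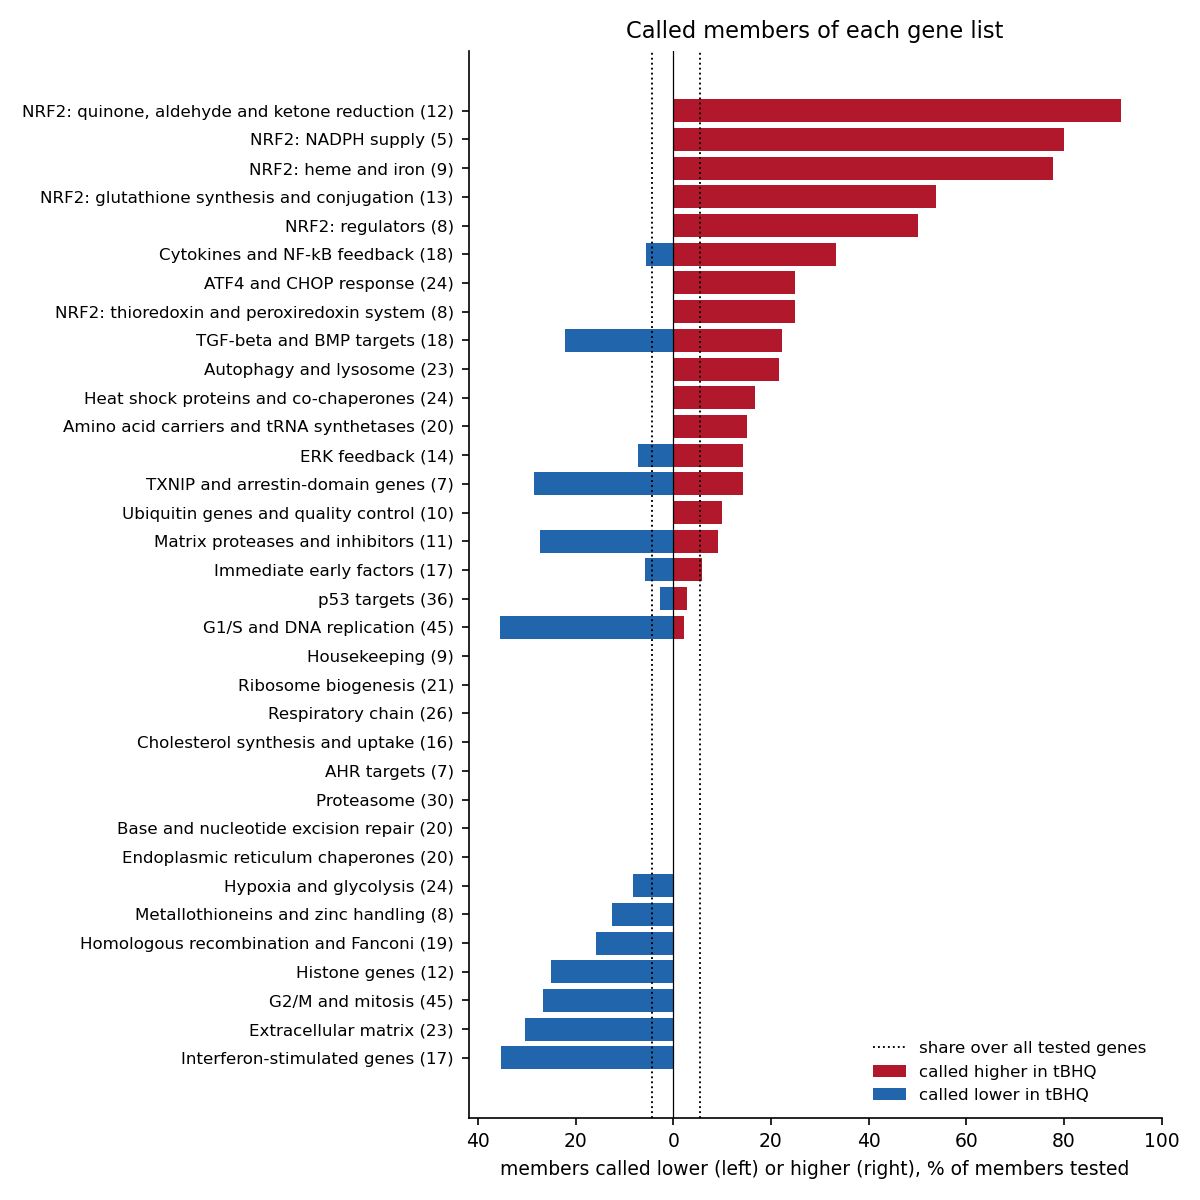
Share of tested members of each gene list called higher (red, right) or lower (blue, left) in tBHQ samples than in DMSO_pooled samples, in percent, with the number tested in brackets and dotted lines at 5.39% and 4.44%, the shares over all tested genes. Lists are ordered by the share called higher and, where that is equal, by the share called lower. Quinone, aldehyde and ketone reduction is at the top with 11 of 12 members higher, and interferon-stimulated genes at the bottom with 0 higher and 6 of 17 lower.

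The genes with the largest changes reached beyond these lists. The 15 largest rises among genes without overlap between groups held 6 pathway genes already described (AKR1C1, AKR1C2, AKR1C3, AKR1B10, HMOX1 and SLC7A11), with BMP2, CXCL3 and DUSP5. NMRAL2P, a pseudogene of an NADPH-sensing family, ran from 8.07 to 8.68 after tBHQ (median 8.29) and averaged under 4 in the control, a rise of at least 4.32. NRCAM, a neuronal adhesion molecule, ran from 7.61 to 8.62 (median 8.40) after tBHQ and from 4.33 to 4.95 (median 4.65) in the control, a difference of 3.65 ± 0.16 (adjusted p = 9.71e-09). The other risers were SPP1, the secreted phosphoprotein osteopontin (2.81), the proton pump subunit ATP6V0D2 (2.61), GJA1, which encodes the gap junction protein connexin 43 (2.54), and the mucin-type glycosyltransferase GCNT3, at least 2.32 over the limit of 4.

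At the other end, 6 of the 15 largest falls ended under the limit of 4 on average. FLG, the epidermal filament aggregator filaggrin, ran from 2.78 to 3.93 after tBHQ (median 3.15) and from 6.35 to 7.29 in the control (median 6.63), at least 2.75 lower (adjusted p = 9.61e-08). ST6GAL2, a sialyltransferase, was at least 1.54 lower, PLAC8 at least 2.00, the receptor phosphatase PTPRB at least 1.95, LBH at least 1.81 and the cAMP phosphodiesterase PDE4B at least 2.14. Another probe set fell less as measured for PTPRB (-1.02) and for PDE4B (-0.60). KRTAP2-3, a hair keratin-associated protein, and KRT80, an epithelial keratin, fell by 2.66 ± 0.37 and 2.40 ± 0.23. NOX4, an oxidase that makes hydrogen peroxide, ran from 6.20 to 7.88 after tBHQ (median 7.07) and from 8.34 to 9.61 in the control (median 9.36), a difference of -2.04 ± 0.34 (adjusted p = 5.71e-04). CTHRC1, a secreted collagen-associated protein (-1.96), SERTAD4 (-1.94), the adhesion receptor TENM2 (-1.91) and the antisense RNA HHIP-AS1 (-1.89) followed, beside TXNIP and THBS1.

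To see which of these changes set tBHQ apart, its samples were tested directly against 2 other treatments of the same array set, H2O2 at 100 µM (5 samples) and the compound labelled GAD at 2 mM (6 samples). All 3 share the DMSO_pooled control, which drops out of a direct contrast. The agents and doses differ, so the differences belong to these doses and the series text matches them only by total p53. Against H2O2, 554 genes were higher in tBHQ (4.82%) and 596 lower (5.19%), a balance that turned to 648 higher and 538 lower with an equal median for each array. Against GAD, 1794 were higher (15.6%) and 1162 lower (10.1%), a split that turned to 1359 higher and 1903 lower when arrays were set to an equal median, which put the median difference of all genes at -0.15.

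Members of the NRF2 lists were higher after tBHQ than after H2O2, the other oxidant. Of 55 members 32 were higher in tBHQ than in H2O2 and 0 lower, with a median difference of 0.78, where 4.82% of all tested genes were higher. AKR1C1 was 5.28 ± 0.39 higher (adjusted p = 3.98e-13), HMOX1 4.05 ± 0.24, AKR1C2 4.32, NMRAL2P 3.99, SLC7A11 3.67 and NRCAM 3.09. One H2O2 sample, replicate 3, stood apart in several of these, with HMOX1 at 9.27 where the other samples of the group ran from 7.10 to 7.22. Without it 34 members were higher, and AKR1C1 and HMOX1 were 5.58 and 4.47 higher in tBHQ. Relative to DMSO_pooled, SLC7A11 differed by 2.91 in tBHQ and, over all 5 H2O2 samples, by -0.77 in H2O2. Lowest relative to H2O2 were KRTAP2-3 (-3.26), TXNIP (-2.89) and KRT80 (-2.55), with FLG at least 3.15, PLAC8 at least 2.57 and ST6GAL2 at least 1.23 lower, since they averaged under 4 in tBHQ. The p53 list lay the other way, with 18 of 36 members lower in tBHQ and 0 higher, where 5.19% of all tested genes were lower. MDM2 was 1.00 ± 0.09 lower than in H2O2 (adjusted p = 1.64e-10) and CDKN1A 0.67 ± 0.10 lower (adjusted p = 1.04e-06), whereas GDF15 differed by 0.23 (adjusted p = 0.369). In the list of G1/S and DNA replication, 2 of 45 genes were lower in tBHQ than in H2O2 and 0 higher (median -0.046). Among mitotic genes 3 of 45 were lower and 0 higher (median 0.075), and none of 19 homologous recombination and Fanconi genes was called.

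Against GAD, the direct test called 11 of 55 NRF2 members higher in tBHQ and 0 lower, with a median of 0.19, a share near the 15.6% of all tested genes. The count was 9 with equal medians and 14 with quantile normalization. HMOX1 was 1.86 ± 0.23 higher in tBHQ than in GAD (adjusted p = 9.57e-09). SLC7A11 (-0.37), NQO1 (-0.07), SRXN1 (-0.09) and GCLM (0.32) did not pass the test. The p53 list was again lower in tBHQ at 18 members and higher at 1, where 10.1% of all tested genes were lower. CDKN1A was 1.03 ± 0.09 and MDM2 1.08 ± 0.09 lower. Of 23 matrix genes 14 were higher in tBHQ than in GAD and 0 lower, where 15.6% of all tested genes were higher. With an equal median for each array 9 were higher. Against DMSO_pooled, 7 of these 23 matrix genes were lower in tBHQ and 0 higher. The largest differences above GAD were those of PTGES, the terminal prostaglandin E synthase (4.52), the G protein subunit GNG2 (3.91) and the TGF-beta co-receptor TGFBR3 (3.68). Relative to DMSO_pooled, these genes differed by 1.23, -0.23 and 0.90 in tBHQ and by -3.30, -4.13 and -2.78 in GAD. GJA1 (at least 3.77), the phospholipase PLCB1 (at least 3.66) and ATP6V0D2 (at least 3.54) averaged under 4 in GAD. In tBHQ they were 2.54, 1.21 and 2.61 above DMSO_pooled. The cytokine IL11 (-3.66), SPANXC (-3.91) and KRTAP2-3 (-2.97) were lower in tBHQ than in GAD. Relative to DMSO_pooled, they differed by -0.48, 0.29 and -2.66 in tBHQ and by 3.18, 4.19 and 0.30 in GAD. MYCT1, LURAP1L-AS1 and FILIP1 averaged under 4 in tBHQ and in DMSO_pooled alike. They were at least 3.75, 2.76 and 2.87 lower in tBHQ than in GAD.

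**Figure D5:**
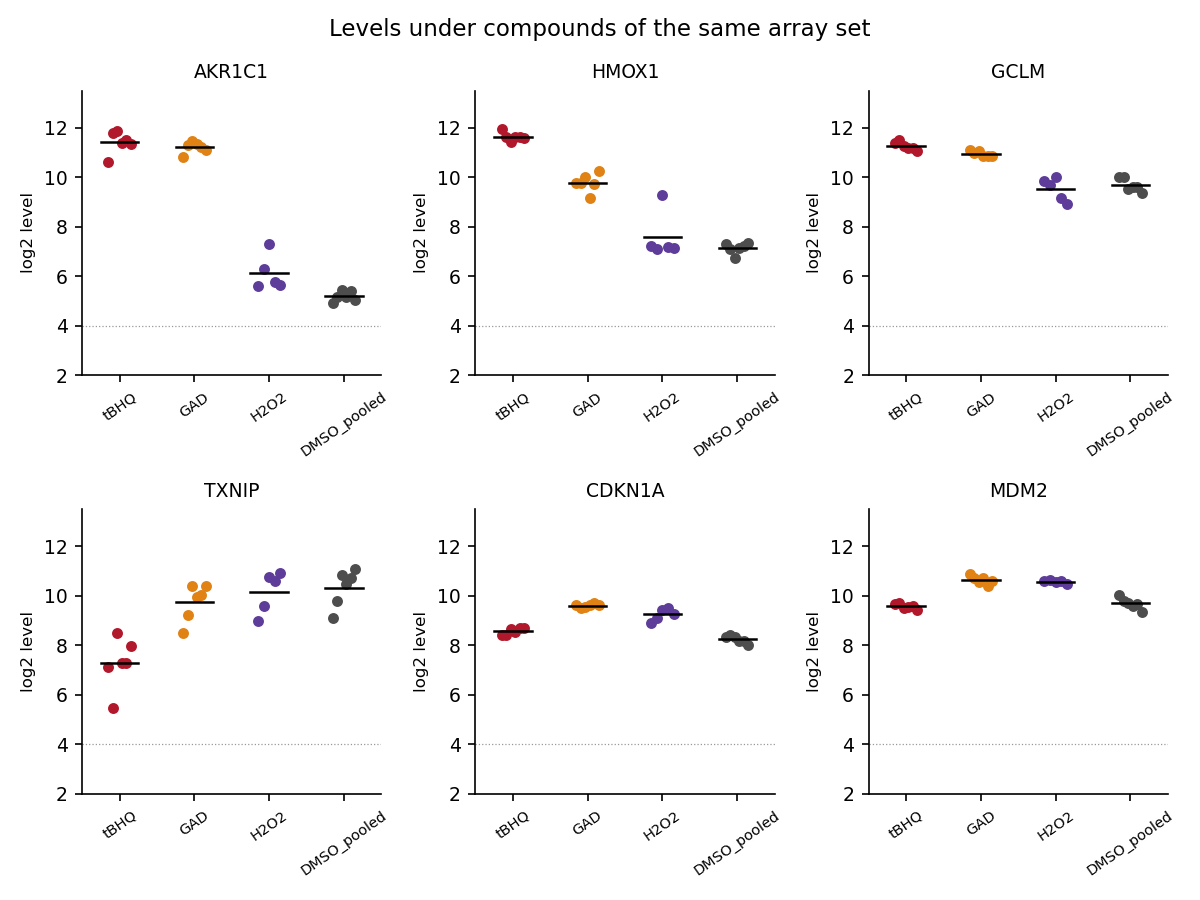
Log2 levels of 6 genes in samples given tBHQ, GAD or H2O2 and in DMSO_pooled samples, with a point per sample, black bars for group means and a dotted line at the limit of 4. HMOX1 is highest and TXNIP lowest in tBHQ, whereas CDKN1A and MDM2 are higher in GAD and H2O2 than in tBHQ.

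The compound labelled CUR, at 10 µM, belongs to another array set with its own DMSO control, so the effects of the 2 compounds were compared, tBHQ minus its control against CUR minus its control. They differed at 804 genes, 413 higher (3.59%) and 391 lower (3.40%). Of 55 NRF2 members 18 had a larger effect in tBHQ and 0 a smaller one. AKR1C1 was 6.22 higher after tBHQ and 3.20 after CUR, each relative to its control, so the effects differed by 3.02 ± 0.37 (adjusted p = 9e-06). HMOX1 was 4.49 higher after tBHQ and 1.92 after CUR (difference 2.57 ± 0.39, adjusted p = 9.17e-05). NQO1 was 1.31 higher after tBHQ and 1.05 after CUR, and the difference of 0.26 did not pass (adjusted p = 0.119). PTGS2 (2.75), ATP6V0D2 (2.75) and AKR1C2 (2.65) were also among the 6 genes with the largest measured excess in tBHQ. Their effects were 1.76, 2.61 and 4.48 after tBHQ and -0.99, -0.14 and 1.83 after CUR. KRTAP2-3 had a deficit of -4.49 ± 0.56 (adjusted p = 1.11e-05), the muscle ankyrin protein ANKRD1 of -3.03 and KRT80 of -2.86. These genes fell by 2.66, 1.53 and 2.40 after tBHQ and were 1.83, 1.50 and 0.46 above control after CUR. FLG, under 4 in tBHQ, was lower by at least 3.01. GJA1, ST6GAL2 and LBH were also called, but averaged under 4 in both groups of the CUR set, where an effect could not be read, so no size is given.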

How the data were processed

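RNA of HT1080 cells was hybridised to Affymetrix HT HG-U133+ PM arrays. The deposited log2 values were made by the authors with GCRMA in Partek, per the submitters' processing notes, with no version given. As a method, GCRMA adjusts each array for probe background and quantile normalises the arrays, which pulls low levels together and understates changes near background. Array medians were 3.272 to 3.315 for tBHQ and 3.266 to 3.326 for DMSO_pooled. No sequencing depth applies, and the number of arrays limits the precision.

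Probe sets were named from the platform annotation with symbols updated through Entrez IDs. Of 54613 non-control probe sets, 40914 had 1 gene, 864 several and 12835 none, and those with several or none were left out. Each of 19747 genes was read from its brightest probe set on average, and 11489 with a mean of at least 4 in 1 or more of 17 groups were tested with limma 3.58.1 (R 4.3.3, lmFit and eBayes, Benjamini-Hochberg). A call needed an adjusted p under 0.05 and a change of at least 1.5-fold. Where a group averaged under 4, the change is given as at least its distance from 4. The SE is that of the moderated fit. The tBHQ and DMSO_pooled arrays alone entered the main comparison. All 7 groups of the pooled-control set entered the direct comparisons with H2O2 and GAD, and both pairs of treated and control groups the comparison with CUR.

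Replicate numbers come from the sample titles. Deviations from group means correlated at 0.435 to 0.771 between tBHQ and DMSO_pooled samples of the same number. Over the 30 combinations of different numbers they correlated at -0.622 to 0.612, so the ranges overlap. Each tBHQ sample correlated highest with the control of its own number, narrowly for replicate 5 (0.527, against 0.525 with DMSO_pooled replicate 6). The main fits used no block, so their SEs and p-values do not use the pairing. The numbers served for the counts of same-numbered pairs and as a block in an alternative fit. On simulated data limma called 97.0% of 67 genes changed 2-fold in tBHQ against DMSO_pooled, and 82.1% of 67 changed 1.7-fold. For the comparison with CUR it called 83.6% and 53.7%. False calls numbered 4 against DMSO_pooled, 20 against H2O2, 6 against GAD and 5 for the comparison with CUR. The noise was drawn independently for each sample, so the simulation lacks the replicate structure of the real arrays.

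The comparison, the gene lists and the tests were chosen with earlier results of these data known. Genes named in the text are the 15 largest rises and falls without overlap between groups, called and defining members of the lists, and the 6 largest differences each way from each other compound. Alternatives covered the filter, the choice of probe set, the scaling, the variance model, the fold minimum, the groups in the fit, the block, and leaving out each library in turn.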

Additional observations from a re-analysis of the deposited data

Results flagged for a closer look

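Among the 179 genes named, the samples of tBHQ and of DMSO_pooled were searched for a lone value by Dixon's criterion, and 26 of 358 groups (7.3%) had one, where chance gives about 1 in 20. Of the 26, 13 were tBHQ replicate 1. It was low for IL1B (10.048, others 11.558 to 11.99), AKR1C3 (8.846), GCLC (9.588), MGST1 (11.094), FTL (13.224), PLAT (9.256), ARRDC2 (5.648) and PTGES (6.314, others 9.076 to 10.022). It was high for CDK1 (9.937), MRE11 (8.232), CYP1A1 (4.341), MYCT1 (4.203) and LURAP1L-AS1 (3.596). DMSO_pooled replicate 1, of the same number, was low for PTGES (4.936), GDF15 (10.586), SPP1 (5.364) and PLAT (10.245). The other lone tBHQ values were BAMBI (5.758) and TALDO1 (11.289) in replicate 4, CTHRC1 (7.448) and SLC1A5 (6.163) in replicate 3, and TGFBR3 (8.20) in replicate 2. The other lone DMSO_pooled values were AKR1B10 (6.672) in replicate 2, CTHRC1 (8.909) in replicate 3, TALDO1 (10.732) in replicate 4 and NMRAL2P (3.676) in replicate 6. The effects of tBHQ and CUR, each against its own control, differed at 804 genes by the test of the difference.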

How the results depend on the processing

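The number of genes called ran from 1091 to 1240 for tBHQ against DMSO_pooled, and from 1113 to 1235 for tBHQ against H2O2, when each library was left out in turn. With the replicate block the counts were 1193 against DMSO_pooled, 1205 against H2O2, 2979 against GAD and 1200 for the comparison with CUR. Beyond the values given with IL1B and EGR1, the block also called PTGES (1.23) and ASNS (0.64) and ended no call of a named gene in tBHQ against DMSO_pooled. Testing every probe set gave 2127, 2133, 5772 and 1387 calls in the order DMSO_pooled, H2O2, GAD and CUR, and dropping the fold minimum, which can only add calls, gave 3671, 3701, 6892 and 1420. The share of calls that were higher against GAD was 60.7%, and 41.7% with equal medians. Against DMSO_pooled it was 54.8%, and 49.5% with quantile normalization. Over settings other than a left-out library, named genes that were not called and changed sign were AURKA (-0.022), LURAP1L-AS1 (-0.003), MLXIP (-0.006) and NFKBIA (-0.018) with equal medians, MLXIP (-0.008), MX1 (0.007) and NFKBIA (-0.032) with quantile normalization, and CUL3 (-0.039) and HSPA5 (-0.077) with averaged probe sets; the cause was not tested. With each library left out in turn, the uncalled values ran from -0.118 to 0.127 for AURKA, -0.019 to 0.086 for FILIP1, -0.056 to 0.161 for FOXM1, -0.042 to 0.083 for GPX4, -0.043 to 0.086 for LURAP1L-AS1, -0.024 to 0.056 for MLXIP, -0.06 to 0.019 for MX1, -0.168 to 0.131 for MYCT1 and -0.022 to 0.07 for NFKBIA. The call of 17 named genes ended without 1 library, as given beside each. Averaging all probe sets of a gene ended the call of 20 named genes, among them TYMS (-0.52), ANKRD37 (-0.334), HSPB8 (0.385), MCM6 (-0.45), MRE11 (-0.308), RRM2 (-0.626) and CCNE1 (0.431), with sizes of 0.156 to 0.626 on the log2 scale. Members of the NRF2 lists called higher in tBHQ than in DMSO_pooled numbered 34 with equal medians and 34 with quantile normalization, and those called higher than in GAD 9 and 14. Array signal over background limits genes near a level of 4.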
